A study of Mus musculus with 12 samples.

Results

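The genes Tnfsf11 and Tnfrsf11b, which encode the bone resorption signals RANKL and OPG, were examined for H3K27ac and H3K27me3 in mouse mesenchymal stem cells (MSCs). Their regions were chosen by position alone: every region of either mark that overlapped the gene body or the 200 kb on each side of it. Of 59664 regions in all, 42 qualified. The Tnfsf11 window held 13 H3K27ac and 9 H3K27me3 regions, and the Tnfrsf11b window held 15 and 5. H3K27ac is an acetylation found at active promoters and enhancers, and H3K27me3 is the methylation laid down by Polycomb complexes at silent genes. The signal came from CUT&RUN, in which a nuclease tethered to an antibody cuts out the DNA that carries the mark. MSCs of young mice (3 to 5 months) and old mice (18 to 22 months), all kept at 2% O2, gave 3 libraries for each mark and age, 12 libraries in 4 groups. The labels state neither strain, sex and treatment nor whether the replicates were separate animals or cultures, so every p-value below measures only the spread between these samples.

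RANKL is a membrane-bound and shed cytokine of the TNF family. Stromal and osteoblast-lineage cells present it to osteoclast precursors, where it binds its receptor RANK and drives their maturation into bone-resorbing osteoclasts. OPG is a secreted decoy receptor made by the same stromal cells, which binds RANKL and keeps it from RANK. Tnfsf11 is known for enhancers that lie far upstream of its promoter, so flanks as well as gene bodies were read.

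Tnfsf11 (ENSMUSG00000022015.8) occupies chr14:78277445-78308043 and Tnfrsf11b (ENSMUSG00000063727.3) occupies chr15:54250619-54278484, both on the minus strand of mm10. The promoter of Tnfsf11 is shown because the difference between ages with the smallest p-value of either window lay over it. It runs from 250 bases before to 50 bases after the RefSeq start, chr14:78307994-78308293 (GRCm38.p6, minus strand), and is followed by the middle 300 bases of the H3K27ac regions 21.0 and 66.5 kb upstream, the densest of the window, and of the region 145.5 kb upstream, which had the largest deficit in old cells outside the gene. These lie at chr14:78330601-78330900, chr14:78376351-78376650 and chr14:78454351-78454650 (RefSeq genome GRCm38, minus strand). The middle of a region is an arbitrary choice and not a mapped binding site. Capitals mark the motifs that were found.
Tnfsf11 promoter: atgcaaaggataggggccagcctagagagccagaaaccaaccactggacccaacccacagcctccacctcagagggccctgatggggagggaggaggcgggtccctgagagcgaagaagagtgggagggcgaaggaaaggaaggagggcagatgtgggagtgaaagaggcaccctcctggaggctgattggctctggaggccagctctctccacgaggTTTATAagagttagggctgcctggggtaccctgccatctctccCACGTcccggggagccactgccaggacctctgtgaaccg
21.0 kb upstream: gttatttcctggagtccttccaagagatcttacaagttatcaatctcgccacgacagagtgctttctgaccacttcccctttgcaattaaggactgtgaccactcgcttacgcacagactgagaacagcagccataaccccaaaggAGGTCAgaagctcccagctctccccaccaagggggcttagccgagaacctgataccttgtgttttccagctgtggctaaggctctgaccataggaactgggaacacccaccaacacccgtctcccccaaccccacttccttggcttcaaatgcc
66.5 kb upstream: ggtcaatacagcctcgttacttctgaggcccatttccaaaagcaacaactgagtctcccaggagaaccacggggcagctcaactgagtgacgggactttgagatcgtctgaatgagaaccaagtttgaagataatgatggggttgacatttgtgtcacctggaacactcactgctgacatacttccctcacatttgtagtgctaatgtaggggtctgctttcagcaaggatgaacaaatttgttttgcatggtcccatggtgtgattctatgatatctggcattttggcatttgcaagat
145.5 kb upstream: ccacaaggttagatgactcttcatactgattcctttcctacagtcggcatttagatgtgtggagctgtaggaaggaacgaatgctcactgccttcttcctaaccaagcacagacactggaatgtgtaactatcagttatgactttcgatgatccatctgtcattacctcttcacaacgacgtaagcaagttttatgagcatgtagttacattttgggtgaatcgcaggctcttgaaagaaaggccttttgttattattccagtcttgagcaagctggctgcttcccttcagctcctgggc

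6 motifs were searched on both strands: TATAAA from a box near many starts, TGTGGT as the core bound by Runx factors, AGGTCA as a site of nuclear receptors, GGGCGG as the box bound by Sp factors, TGACTCA for AP-1, and ACGTG as the core of the hypoxia response element. The Tnfsf11 promoter held TATAAA on the other strand, with its first printed base 32 bases before the start (-32), and ACGTG on the other strand at base 11 after it. Of 32851 mouse promoters of the same length, 13.6% held TATAAA and 19.6% held ACGTG. The other 4 motifs were not in this window, and their shares over all promoters were 16.8% for the Runx core, 16.3% for the nuclear receptor site, 35.7% for the Sp box and 5.20% for AP-1. The promoter had a GC content of 61.7%, against a median of 52.7% over all promoters. Among the printed upstream stretches, the one 21.0 kb away held AGGTCA at base 147, a motif present in the middle 300 bases of 17.1% of the 31617 H3K27ac regions. None of the 6 motifs was in the stretches 66.5 and 145.5 kb upstream.

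Library depth limited how finely each region could be read. The H3K27ac libraries held 2750953 to 5541429 reads and the H3K27me3 libraries 3622108 to 9947515, and old replicate 2 was the shallowest in both marks. The median region had 12 to 30 reads per H3K27ac library and 28 to 79 per H3K27me3 library. Markers of cell identity were read as regions over the transcription start site (TSS) with 1 kb on each side. All 8 stromal markers carried H3K27ac, among them Pdgfra, Thy1 and Cd44, whereas 0 of 6 blood markers, including Ptprc and Spi1, and 0 of 3 endothelial markers did. Of 6 osteoclast markers 4 lay in H3K27ac regions, those of Ctsk and Oscar shared with the start of a neighbouring gene and those of Acp5 and Ocstamp not. Because cells were measured in bulk, a change in the number of cells with a mark and a change in the mark per cell cannot be told apart.

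The 2 windows differed in which mark covered more of them. Around Tnfsf11, H3K27me3 regions covered 49.4% of the 430.599-kb window and H3K27ac regions 9.64%. Around Tnfrsf11b, H3K27ac covered 21.3% of the 427.866-kb window and H3K27me3 5.11%. The whole Tnfrsf11b gene body lay inside H3K27ac (100%) and outside H3K27me3 (0%), while 31.2% of the Tnfsf11 gene body was in H3K27ac and 0.141% in H3K27me3. All 42 regions were deposited with a state that names both ages, so neither window held a region assigned to 1 age. The share of all regions with that state is not given here, so it is not read as a trait of these genes.

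**Figure D1:**
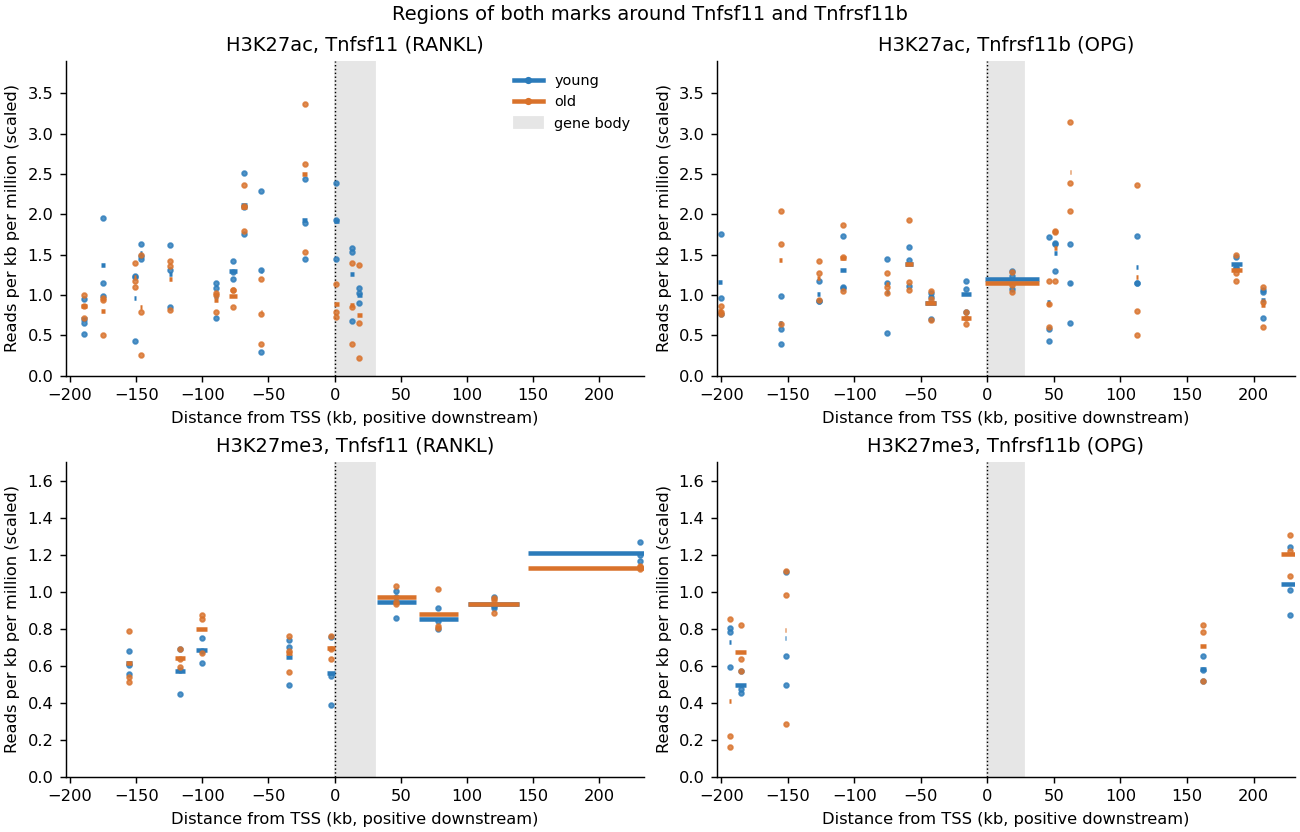
H3K27ac (top) and H3K27me3 (bottom) regions around Tnfsf11 and Tnfrsf11b, drawn to scale against the distance from the TSS in kb, with RPKM (scaled reads per kb, relative to library size) on the vertical axis. Lines span each region at the mean of 3 young or 3 old libraries, points are single libraries, and the H3K27me3 region farthest downstream of Tnfsf11, 285.5 kb long, runs past the plot; H3K27me3 flanks Tnfsf11 whereas a 40.5-kb H3K27ac region covers Tnfrsf11b.

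The 3 old libraries had less H3K27ac over the Tnfsf11 promoter than the 3 young ones, a difference that did not pass the test over all regions. The 3.5-kb region over the TSS (chr14:78305001-78308500) was covered by 31, 29 and 41 reads in the young libraries and by 20, 7 and 10 in the old ones (replicates 1, 2 and 3 in this order throughout). After scaling (median of ratios within the mark, reads scaled to library size and a constant 0.5 kb) its signal was 10.1, 16.7 and 13.5 in young and 7.97, 5.50 and 5.10 in old libraries. Every old library lay below every young library. The means were 13.4 ± 3.30 and 6.19 ± 1.56 (SD, n = 3), a ratio of 0.460. In limma fitted on log2(signal + 0.5) across all 31617 regions, the difference was -1.06 (log2 old minus young, SE 0.27), with a Benjamini-Hochberg adjusted p of 0.136 and a rank of 102 by p-value. The region passed the threshold of 0.05, among the settings tried, only when the signal was left unscaled (limma, log2 difference -1.17, adjusted p = 0.0414), a setting in which the median H3K27ac region shifted by -0.12 on the log2 scale and the median H3K27me3 region by -0.13. edgeR on the recovered reads gave an adjusted p of 0.0814. Leaving out 1 library at a time kept the difference between -1.24 and -0.89.

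The same promoter carried H3K27me3 on its upstream side. A 6-kb H3K27me3 region (chr14:78308001-78314000) began just before the acetylated region ended, and the 0.5 kb that both marks shared, the only overlap of the marks in either window, held the TSS. This H3K27me3 region was sparse, with a mean of 28.7 reads per library. Its scaled RPKM of 0.629 exceeded that of 20.7% of all H3K27me3 regions and of 5.61% of those at promoters. Of 21924 protein-coding genes, 1625 had both marks within 1 kb of the TSS. The H3K27me3 signal was 9.09, 4.63 and 6.54 in young and 8.29, 9.10 and 7.61 in old libraries. The groups overlapped, with means of 6.75 ± 2.24 and 8.33 ± 0.747 (SD, n = 3) and a log2 difference of 0.33 (SE 0.24, limma adjusted p = 0.579), which was 0.10 without young replicate 2 and 0.55 without young replicate 1. The marks were scaled in separate tables, so their balance is given without a test. Per kb, the log2 ratio of H3K27ac to H3K27me3 in these 2 regions was 0.93, 2.63 and 1.82 in young and 0.72, 0.052 and 0.20 in old replicates, with means of 1.80 ± 0.849 and 0.32 ± 0.351 (SD, n = 3). All old ratios were below all young ones when libraries were matched by replicate number. The level of the ratio was not interpreted, because the marks had separate antibodies and were scaled in separate tables. The median region had a scaled RPKM of 1.10 in H3K27ac and 0.737 in H3K27me3.

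**Figure D2:**
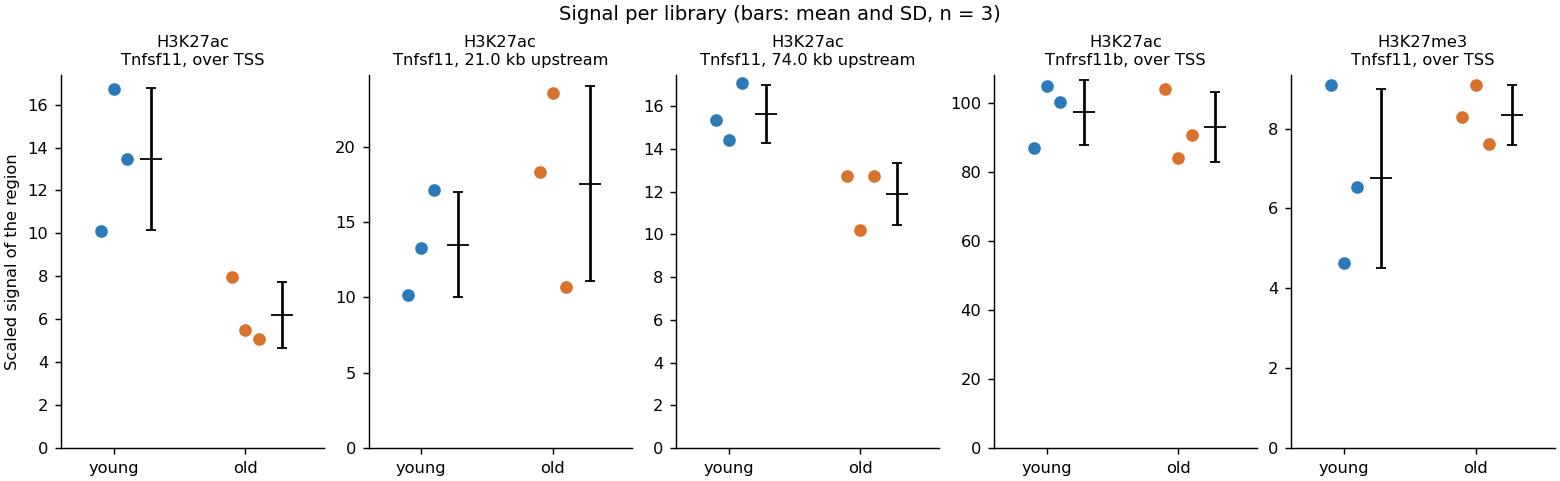
Scaled signal of 5 regions in each library, young on the left and old on the right of each panel, with the mean and SD (n = 3) beside the points. The groups separate for H3K27ac over the Tnfsf11 TSS (5.10 to 7.97 in old, 10.1 to 16.7 in young) and 74.0 kb upstream, and overlap in the other 3 panels.

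2 further H3K27ac regions lay within the Tnfsf11 gene body. The one 11.5 kb downstream of the TSS had signals of 9.47, 4.04 and 9.21 in young and 8.37, 2.36 and 5.10 in old libraries (log2 difference -0.54, SE 0.37, limma adjusted p = 0.688). The one 17.0 kb downstream had 7.19, 6.35 and 7.56 in young and 9.57, 1.57 and 4.59 in old libraries (-0.67, SE 0.40, adjusted p = 0.629). In both the groups overlapped, and old replicate 2 was the lowest library, with 3 and 2 reads. Without it the differences were -0.11 and -0.071, and without old replicate 1 they were -0.93 and -1.21. Summed over the 3 gene-body regions, a window chosen after the data were seen, the log2 signal differed by -0.87 between old and young (exact permutation p = 0.10, two-sided, the smallest that 3 against 3 can give).

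The 10 H3K27ac regions upstream of Tnfsf11 differed in both directions. The densest of them, 21.0 kb upstream (chr14:78329001-78332500), averaged a scaled RPKM of 2.22 (reads per kb of region, relative to library size), more than 99.4% of H3K27ac regions. Its signal was 10.1, 13.3 and 17.1 in young and 18.3, 23.6 and 10.7 in old libraries, with overlapping groups (log2 difference 0.33, SE 0.25, limma adjusted p = 0.715). Leaving out 1 library moved it between 0.084 (without old replicate 2) and 0.64 (without old replicate 3), and it was 0.14 without young replicate 1 and 0.51 without young replicate 3. The region 66.5 kb upstream, at an RPKM of 2.10, had 14.05, 16.7 and 20.1 in young and 14.3, 18.9 and 16.8 in old libraries. Its difference was -0.016 (SE 0.21, adjusted p = 0.991).

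Farther upstream, some regions had less signal in old libraries. In the region 145.5 kb away (chr14:78453501-78455500) young libraries had 6.53, 5.77 and 5.92 and old libraries 5.98, 3.15 and 1.02, so old replicate 1 lay within the young range (log2 difference -0.99, SE 0.42, limma adjusted p = 0.431). The 2 deeper deficits came from 4 and 2 reads, and the difference was -0.43 without old replicate 3 and -1.48 without old replicate 1. All old libraries lay below all young ones 74.0 kb upstream, where young libraries had 15.4, 14.4 and 17.1 and old libraries 12.8, 10.2 and 12.7 (-0.38, SE 0.22, adjusted p = 0.601), and 174 kb upstream (-0.69, SE 0.36, adjusted p = 0.545). The largest gain was 150 kb upstream (0.42, SE 0.39, adjusted p = 0.789). The region 187 kb upstream overlapped Akap11, a neighbouring gene that encodes an anchoring protein of protein kinase A, and differed by 0.29 (SE 0.29, adjusted p = 0.807). The H3K27ac regions 123 to 187 kb upstream all lay nearer to the TSS of Akap11 than to that of Tnfsf11. Those 145.5 and 174 kb upstream were 81.3 and 52.3 kb from it. Which gene these regions act on was not tested.

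Over the 13 H3K27ac regions of the Tnfsf11 window, 10 were lower in old cells and the median log2 difference was -0.38, beside -0.0028 and 50.4% lower over all H3K27ac regions. Of the 28 H3K27ac regions of both windows, 0 were called at a limma adjusted p under 0.05, as 0.0822% of all H3K27ac regions were. An unadjusted p under 0.05 was reached by 4 of the 28, beside 9.6% of all regions; edgeR called 0 of them and gave 4 at an unadjusted p under 0.05, and DESeq2 gave 1. DESeq2 left 27 of the 28 without an adjusted p, so its calls were not counted. In the Tnfsf11 window all old libraries lay below all young ones in 3 of 13 regions (over the TSS and 74.0 and 174 kb upstream), beside 7.42% of all H3K27ac regions, and above them in 0, beside 7.09%.

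H3K27me3 downstream of Tnfsf11 formed broad regions. 3 of them, 29.5, 30.0 and 38.5 kb long and 32.0 to 101 kb from the TSS, differed by 0.042, 0.039 and 0.0013 on the log2 scale, with SEs of 0.11, 0.12 and 0.10. A 285.5-kb region began 146.5 kb away and ran over Epsti1 and Fam216b. It was the only H3K27me3 region of either window in which all old libraries (647, 650 and 640) lay below all young ones (685, 664 and 723), with a log2 difference of -0.097 (SE 0.071, limma adjusted p = 0.574). Upstream, 4 H3K27me3 regions of 4.5 to 8 kb alternated with the acetylated ones. Their differences ranged from -0.019 to 0.21.

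**Figure D3:**
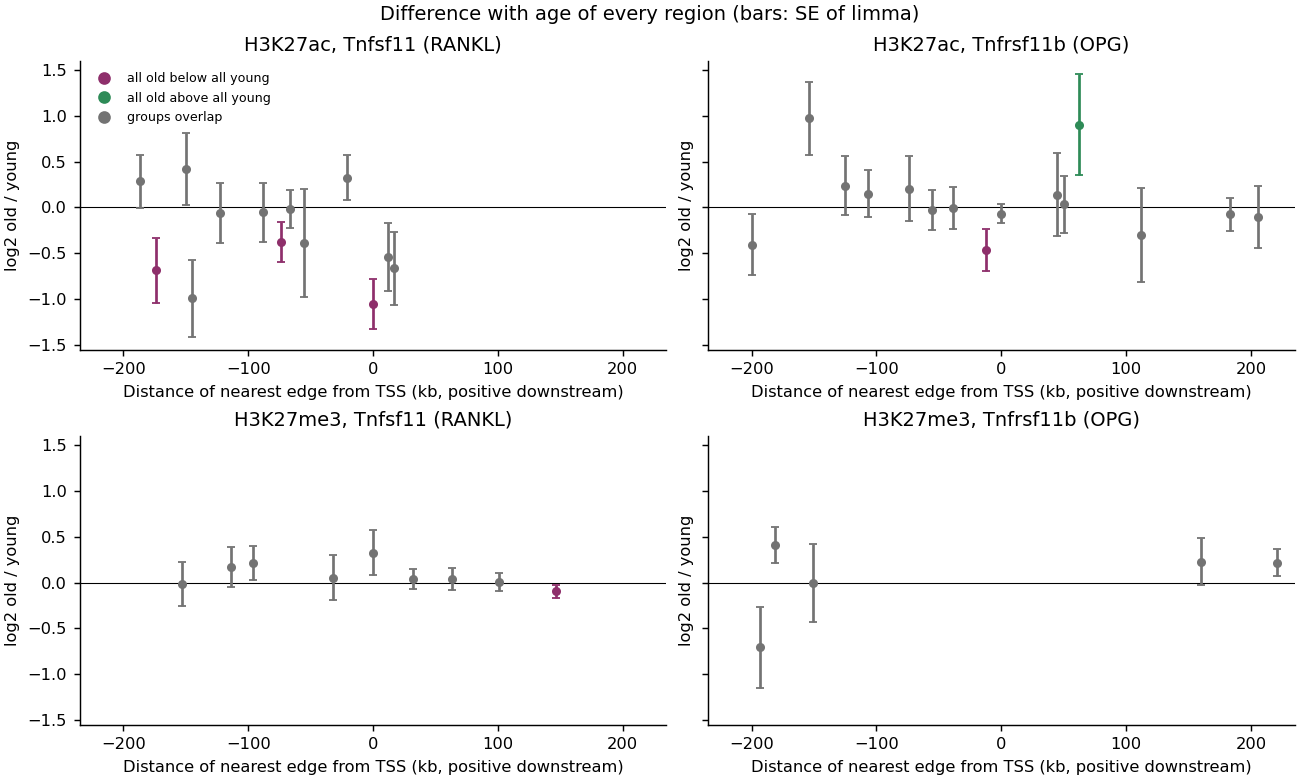
Log2 ratio of old to young signal (limma, bars are SE) for all 42 regions against the distance of the region's nearest edge from the TSS in kb. Purple marks regions in which all old libraries lay below all young ones and green the reverse; the lowest point is the Tnfsf11 promoter in H3K27ac (-1.06), and the H3K27me3 points of the Tnfsf11 window stay between -0.097 and 0.33.

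At Tnfrsf11b, acetylation of the gene itself did not differ detectably between the ages. A single H3K27ac region of 40.5 kb (chr15:54239501-54280000) spanned the gene and its TSS. It held 107 to 305 reads per library, with a scaled signal of 86.9, 105 and 100 in young and 104, 84.1 and 90.7 in old libraries. The groups overlapped, and the means were 97.4 ± 9.41 and 93.0 ± 10.1 (SD, n = 3). The log2 difference was -0.068 (SE 0.10, limma adjusted p = 0.886), and without old replicate 2 it was 0.00072. Its scaled RPKM of 1.18 exceeded that of 60.1% of H3K27ac regions.

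Around the gene, the closest upstream region had less signal in every old library, without passing the test. This 7.5-kb region, 12.02 kb upstream (chr15:54290501-54298000), had signals of 17.6, 16.2 and 11.8 in young and 10.8, 11.8 and 9.68 in old libraries (log2 difference -0.47, SE 0.23, limma adjusted p = 0.518). The old values all lay below the young ones, although the lowest young and the highest old value both round to 11.8. In the opposite direction, a region 154 kb upstream, inside Colec10, a gene for a collectin of innate immunity, had 1.96, 2.89 and 4.93 in young and 3.19, 10.2 and 8.15 in old libraries. Old replicate 1 lay within the young range there (0.97, SE 0.40, adjusted p = 0.417).

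The densest H3K27ac region of the Tnfrsf11b window, 62.0 kb downstream, was 0.5 kb long and held 5, 2 and 2 reads in young and 6, 4 and 4 in old libraries. All old libraries were above all young ones after scaling (0.90, SE 0.55, limma adjusted p = 0.641), but 2 of the young libraries were under 3 reads. Of the 15 H3K27ac regions, 8 were lower and 7 higher in old cells, with a median of -0.0067. All old libraries lay below all young ones in 1 of them and above in 1, against the 7.42% and 7.09% of all H3K27ac regions given above. The remaining regions of the window, from 38.5 kb to 199.5 kb upstream and 45.0 to 206 kb downstream, differed by -0.41 to 0.24.

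H3K27me3 lay far from Tnfrsf11b. The region nearest the TSS was 151 kb upstream, inside Colec10, and held 1 to 11 reads per library (log2 difference -0.0089, SE 0.43). A 9-kb region 181 kb upstream, also over Colec10, had 8.49, 10.3 and 8.11 in young and 10.3, 14.8 and 11.4 in old libraries (0.41, SE 0.20, limma adjusted p = 0.370). The other 3 differed by -0.71 (193 kb upstream, 1 to 8 reads), 0.23 and 0.22. Of the 14 H3K27me3 regions of both windows, limma called 0, beside 0.488% of all H3K27me3 regions, and 0 had an unadjusted p under 0.05, beside 13.9%. edgeR also called 0, and both edgeR and DESeq2 gave 0 at an unadjusted p under 0.05. DESeq2 left 10 of the 14 without an adjusted p and called 0 of the other 4. All old libraries lay below all young ones in 1 of the 14, beside 10.6%, and above them in 0, beside 8.56%.

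Summed over a whole window, young and old libraries overlapped for each mark and gene. The mean log2 difference exceeded both group SDs for H3K27ac around Tnfsf11 (0.084 young, 0.21 old) and H3K27me3 around Tnfrsf11b (both 0.14). The H3K27ac sum of the Tnfsf11 window was 114.7, 105.6 and 118 in young and 111.6, 95.9 and 83.1 in old libraries, with a mean log2 difference of -0.23 (two-sided exact permutation p = 0.20). That of the Tnfrsf11b window was 210.4, 218 and 223 in young and 212, 214 and 212 in old libraries (-0.029, exact permutation p = 0.40). For H3K27me3 the difference was -0.060 around Tnfsf11 (exact permutation p = 0.30) and 0.24 around Tnfrsf11b (exact permutation p = 0.20). The Tnfsf11 value became 0.052 without the 285.5-kb region, most of which lies outside the window. Around Tnfrsf11b, a 13.5-kb region that crosses the window end held means of 28.1 of 44.7 in young and 32.5 of 52.7 in old libraries. Without it the difference was 0.28 (exact permutation p = 0.20). Such a test of 3 against 3 cannot go below 0.10.

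The ratio of the windows within a library needs no scaling between libraries. For H3K27ac the log2 ratio of Tnfsf11 to Tnfrsf11b was -0.88, -1.05 and -0.92 in young and -0.93, -1.16 and -1.35 in old libraries, a difference of -0.20 (exact permutation p = 0.20). For H3K27me3 it was 4.43, 4.36 and 4.25 in young and 4.17, 3.92 and 4.06 in old libraries, a difference of -0.30 with no overlap (exact permutation p = 0.10, the smallest possible). The latter was -0.23 for regions wholly inside the windows (exact permutation p = 0.30). That setting leaves out the 285.5-kb region and the 13.5-kb region that crosses the end of the Tnfrsf11b window. The H3K27me3 ratio differed by -0.17 for regions nearest the TSS (exact permutation p = 0.40), and it turned to 0.053 when regions were weighted equally. The balance of H3K27ac to H3K27me3, a description with no test, averaged -3.01 ± 0.027 in young and -3.18 ± 0.20 in old cells for Tnfsf11 (SD, n = 3). The groups overlapped. For Tnfrsf11b it was 2.32, 2.37 and 2.16 in young and 2.13, 1.87 and 2.05 in old replicates, with means of 2.28 and 2.02. There all old values lay below all young ones. Without the 285.5-kb region the Tnfsf11 values were -0.94 and -1.22. For Tnfrsf11b the difference between ages was -0.30 with only regions wholly inside the window. Equal weighting of regions turned it from -0.27 to 0.051. The balance takes H3K27ac and H3K27me3 libraries with the same replicate number together, and another matching would give other single values.

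**Figure D4:**
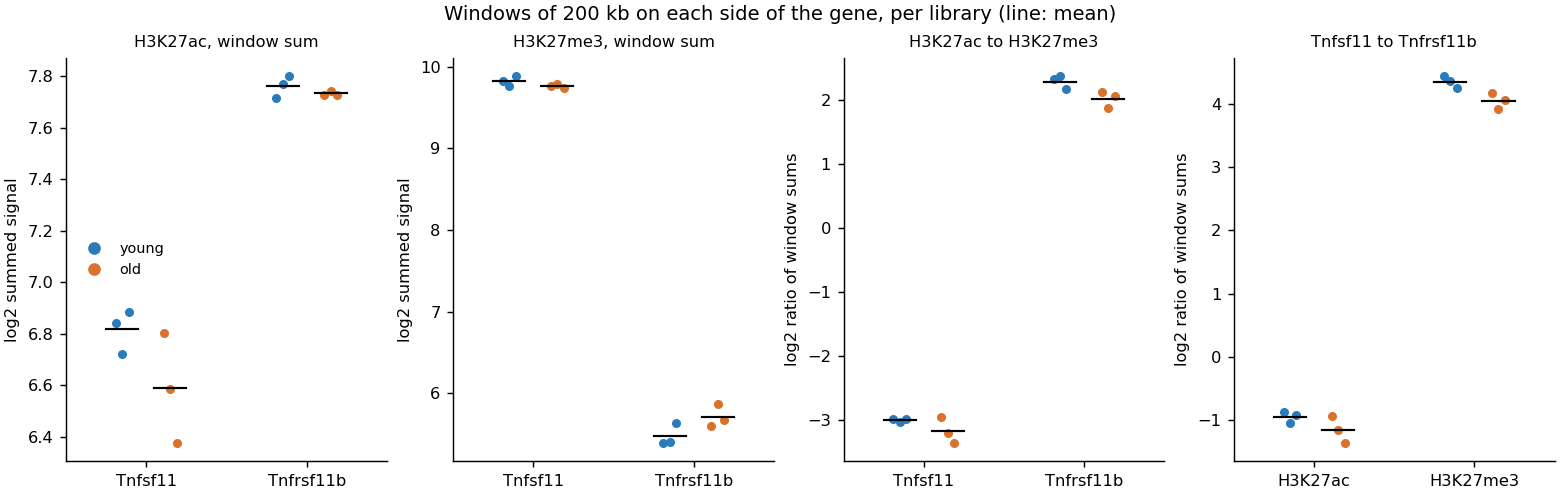
Log2 window sums per library for each mark and gene, the log2 balance of the marks, and the log2 ratio of the Tnfsf11 to the Tnfrsf11b window; points are libraries, lines are group means, and vertical axes differ and do not start at 0. Tnfsf11 lies far below Tnfrsf11b in the balance (means near -3 against 2 in both ages, or -0.94 and -1.22 for young and old at Tnfsf11 without the 285.5-kb region).

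The acetylated sequence of the windows differed in composition. The median GC content of H3K27ac regions was 44.6% around Tnfsf11 and 39.0% around Tnfrsf11b, beside 44.7% over all H3K27ac regions, and the median number of CpG per kb was 9.71, 5.00 and 11.2. The AP-1 motif TGACTCA occurred 16 times in 41.5 kb around Tnfsf11 and 20 times in 93.5 kb around Tnfrsf11b, which is 0.386 and 0.214 per kb beside 0.221 over all H3K27ac regions. The Runx core TGTGGT occurred 0.940, 0.652 and 0.865 times per kb. These are descriptions of sequence, and binding was not measured.

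The genes whose promoters were most like each member were found by the Euclidean distance of log2 density over libraries. For Tnfsf11, over 12 libraries of both marks and 1624 other genes with both marks at the TSS, near genes were Hp (distance 1.07), Glipr1l3 (1.199) and Cdon (1.32), with a median distance of 2.58. For Tnfrsf11b, over 6 H3K27ac libraries and 9683 genes, they were Ppp1cb (0.166), Dimt1 (0.167), Thbs1 (0.189), Smad3 (0.193) and F3 (0.194), with a median of 0.777.

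Other genes of the pathway were read at their promoters in the same fits. Limma called 0 of them in either mark, beside 0.0822% of all H3K27ac and 0.488% of all H3K27me3 regions. Of the 13 genes listed as receptors and signalling, which include Lgr4 and Tnfsf10 beside RANK, 12 carried H3K27ac and 3 H3K27me3. Tnfrsf11a, the receptor RANK itself, had no H3K27ac region and lay in a 25-kb H3K27me3 region denser than 98.3% (-0.15, SE 0.14, limma adjusted p = 0.682). Nfkb2, a subunit of the non-canonical NF-κB pathway, had H3K27ac of 12.4, 9.23 and 7.89 in young and 13.95, 20.4 and 18.9 in old libraries. All old values were above all young ones (log2 difference 0.82, SE 0.23, adjusted p = 0.168). Traf3, an adaptor that restrains that pathway, also had all old values higher (0.33, SE 0.14, adjusted p = 0.436). These 2 were the only ones of the 12 with an unadjusted p under 0.05 in limma, beside 9.6% of all H3K27ac regions, and the median over the 12 was 0.070, with 4 lower. Old libraries lay wholly above young ones in 2 of the 12, beside 7.09% of all H3K27ac regions, and wholly below in 0, beside 7.42%.

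Of 16 receptors through which agents act on RANKL or OPG in stromal cells, 12 had H3K27ac and 6 H3K27me3. Il1r1, the signalling receptor of interleukin-1, lay in an 89.5-kb H3K27ac region with 287, 297 and 260 in young and 243, 201 and 247 in old libraries, all old below all young (-0.29, SE 0.08, limma adjusted p = 0.136). Lifr, the receptor of leukaemia inhibitory factor, lay in a 195-kb H3K27me3 region in which all old libraries were below all young ones (-0.20, SE 0.08, adjusted p = 0.2495). Lifr also had a 3-kb H3K27ac region, with 8.17, 8.08 and 9.54 in young and 3.99, 9.44 and 4.08 in old libraries. The groups overlapped there (-0.62, SE 0.32, limma adjusted p = 0.539). Vdr, the vitamin D receptor, and Pth1r, the parathyroid hormone receptor, carried both marks and differed in H3K27ac by 0.078 (SE 0.17) and -0.12 (SE 0.14). In H3K27me3 Vdr went the other way from Lifr, with all old libraries above all young ones (0.16, SE 0.11, limma adjusted p = 0.517), and Pth1r differed by 0.27 (SE 0.33). An unadjusted p under 0.05 was reached by 1 of the 12 in H3K27ac and 1 of the 6 in H3K27me3, beside 9.6% and 13.9% of all regions. In H3K27ac, old lay wholly below young in 1 of the 12 and above in 0, beside 7.42% and 7.09% of all regions. In H3K27me3 each happened in 1 of the 6, beside 10.6% and 8.56%.

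Of 14 stromal factors that act on osteoclasts, 12 had H3K27ac and 3 H3K27me3, and 0 of these had an unadjusted p under 0.05 in limma, beside 9.6% and 13.9% of all regions of the marks. Csf1, the growth factor that osteoclast precursors need beside RANKL, lay in a 125-kb H3K27ac region shared with Ahcyl1 (0.059, SE 0.058), and Il6 differed by 0.33 (SE 0.21). Of 12 osteoclast genes, 6 had H3K27ac and 5 H3K27me3, again with 0 at an unadjusted p under 0.05. Ocstamp, a membrane protein of osteoclast fusion, and Acp5, the tartrate-resistant acid phosphatase, differed in H3K27ac by 0.33 (SE 0.17) and 0.37 (SE 0.31), Ctsk, the collagen-degrading cathepsin K, by 0.032 (SE 0.087) and Oscar, a co-stimulatory receptor, by -0.20 (SE 0.13). The median over the 6 was 0.17 with 1 lower, and over the 5 in H3K27me3 it was -0.14 with 3 lower. In H3K27ac, old lay wholly above young at Il11, 1 of 12 stromal factors, and Ocstamp, 1 of 6 osteoclast genes, beside 7.09% of all regions. The 38-kb region at Il11 was shared with the starts of Rpl28, Tmem190, Tmem238 and Ube2s, so its difference cannot be assigned to Il11. Old lay wholly below young in H3K27ac in 0 of either list, beside 7.42%. In H3K27me3, old lay wholly below young at Wnt5a, 1 of 3 stromal factors, beside 10.6%.

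**Figure D5:**
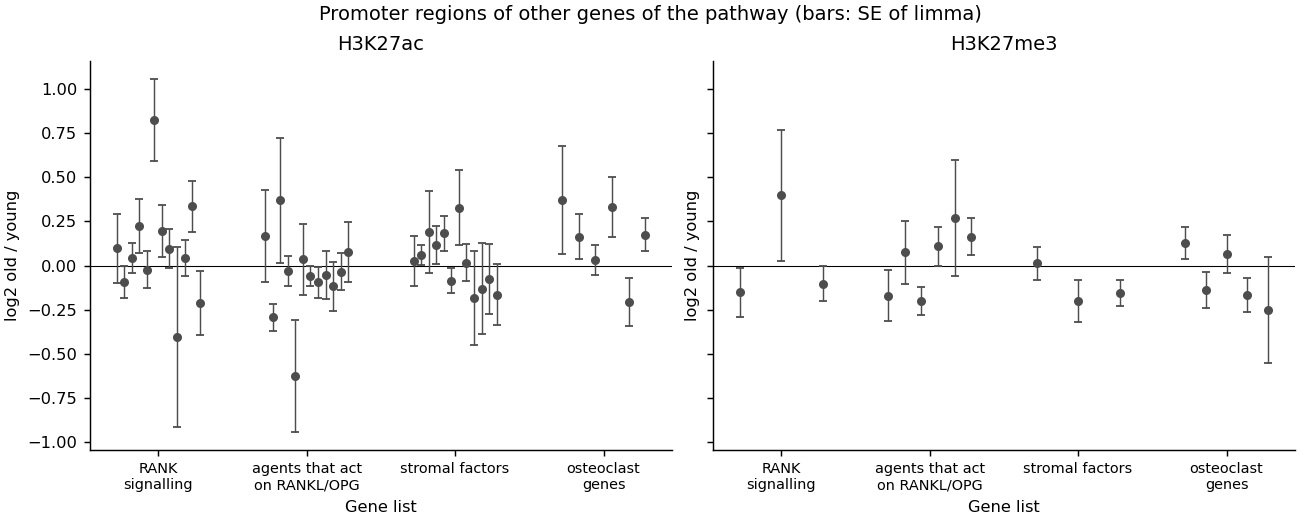
Log2 ratio of old to young signal at the promoters of the other pathway genes in 4 lists, for H3K27ac (left) and H3K27me3 (right); each point is a gene with a region of that mark and bars are the SE of limma. Most points lie within 0.4 of 0, and Nfkb2 is the highest H3K27ac point (0.82).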

How the data were processed

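CUT&RUN of H3K27ac and H3K27me3 was deposited by the authors as 1 table of signal per mark, with regions called jointly for both ages in steps of 500 bp. The submitters' processing notes name Bowtie2, Picard, mm10 and GRCm38; the peak caller and duplicate treatment are not given in the sources used here. The deposited signal is named RPKM but is reads relative to library size for a constant 0.5 kb, whatever the length of the region, so whole reads were recovered for 100% of values (tolerance 0.01 reads). Of columns with values per sample, 0 were left unused.

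Signal was scaled by the median of ratios within each mark, and log2(signal + 0.5) went into limma 3.58.1 (variance trend, robust moderation, two-sided, Benjamini-Hochberg over the whole table, no filter). All differences are on this log2 scale, where the added 0.5 draws regions with few reads towards 0 but a mean of logs gives their lowest libraries more weight than edgeR does, so they can be smaller or larger than those of edgeR. edgeR 4.0.16 and DESeq2 1.42.0 on the recovered reads were alternatives, and all 3 were tested on simulated data. Window sums were compared by exact permutation over samples. Density is the scaled signal times 0.5 divided by the length in kb. Genes came from GENCODE vM21.

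Replicate numbers were not used to pair young with old samples in the main tests. Members and gene lists were chosen with earlier results of these data known. Named regions were those over a gene body, nearest the TSS, densest, with an unadjusted p under 0.05, or with the largest change in each direction; others, and single genes of the lists, were named after their values were seen. Intervals of counting were not used, since PCR copies cannot be told from molecules. Of the 5 promoters nearest to that of Tnfsf11, some are not reported here.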

Additional observations from a re-analysis of the deposited data

How the results depend on the processing

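Of 136 values of the 10 comparisons under other settings, 124 counted as the same, 8 reversed direction and 4 moved. Sums and ratios counted as the same if they kept their direction, and counts of calls if they did not change. Balances counted as the same if they kept their direction and stayed within the larger group SD of the main value. Of 237 values for 16 named regions, 229 kept their direction and side of the threshold. The DESeq2 values among them test few calls, since only 1 of 28 H3K27ac and 4 of 14 H3K27me3 members had an adjusted p. With the signal as deposited, 1 H3K27ac region was called (the Tnfsf11 TSS, -1.17). With regions weighted equally (mean log2), the H3K27ac sum of Tnfrsf11b became 0.079, the H3K27me3 sum of Tnfsf11 0.081, the balance of Tnfsf11 -0.38, that of Tnfrsf11b 0.051 and the H3K27me3 ratio 0.053. With other windows, the H3K27me3 sum of Tnfsf11 became 0.060 (50 kb flanks), 0.075 (regions nearest its TSS), 0.052 (regions wholly inside) and 0.35 (gene body only, added after seeing the data), and the balance of Tnfsf11 -0.37 (50 kb) and -1.22 (gene body). The cause of these changes was not tested. H3K27me3 around Tnfrsf11b has 0 regions in the 2 narrower windows, so no value was obtained there. Leaving out 1 library gave 0 calls in both marks and ranges of -0.34 to -0.12 and -0.052 to -0.011 for the H3K27ac sums of Tnfsf11 and Tnfrsf11b, -0.091 to -0.031 and 0.16 to 0.32 for their H3K27me3 sums, -0.27 to -0.076 and -0.33 to -0.19 for their balances, and -0.31 to -0.096 and -0.36 to -0.23 for the H3K27ac and H3K27me3 ratios. Without young replicate 2 the H3K27ac region 150 kb upstream of Tnfsf11 gave -0.011 (range over left-out libraries -0.011 to 0.63), and without old replicate 2 the Tnfrsf11b TSS region gave 0.00072 (range -0.15 to 0.00072). The H3K27me3 region of Tnfrsf11b nearest its TSS, with 1 to 11 reads, gave 0.015 with a pseudocount of 2, 0.23 with edgeR, 0.18 with DESeq2, 0.23 without young replicate 2 and 0.42 without old replicate 2 (range -0.26 to 0.42).

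Samples with the same replicate number deviated together weakly (r of 0.066, 0.017 and -0.054 over the H3K27ac regions, 0.025, 0.043 and -0.078 over the H3K27me3 regions). Samples with unlike numbers reached -0.13 and 0.13 over the H3K27me3 regions, so these values cannot decide whether equal numbers share a batch. The labels do not say. With the number as a replicate block, limma called 81 H3K27ac and 309 H3K27me3 regions in all, against 26 and 137 without it, and 0 of the members either way. With signs flipped within pairs, exact p was 0.25 and 0.50 for the H3K27ac sums of Tnfsf11 and Tnfrsf11b, 0.50 and 0.25 for the H3K27me3 sums, and 0.25 for both ratios, where 0.25 is the smallest possible. Depth limits the smallest regions most: the 0.5-kb region downstream of Tnfrsf11b had 2 to 6 reads a library.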
